A study of Mus musculus with 10 samples.

Results

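CD26, the product of Dpp4, marks a population of connective tissue fibroblasts that also carries other progenitor markers, and 10 such genes were followed here: Dpp4, Cd34, Ly6a, Ly6c1, Cd55, Pi16, Sema3c, Clec3b, Dpt and Anxa3. They were taken by gene symbol from a table of 55486 genes, and all 10 were found. The question was whether markers known from fibroblasts in tissue still separated CD26− from CD26+ normal fibroblasts (NFs) after culture, with and without tumor cells.

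The 10 RNA libraries came from 5 collagen gels kept for 7 days. NFs were sorted out of the mammary tissue of mTmG mice aged 8 weeks, in which every cell is red (Tomato) until Cre recombinase turns it green (GFP). They lacked EpCAM, CD49f, CD45 and CD31 on their surface, came from pooled mice and were grown on plastic before use. CD26+ NFs were turned green with an adenovirus carrying Cre, CD26− NFs stayed red, and both were mixed in equal parts. Gel 1 held NFs alone and gave 1 CD26− and 1 CD26+ library. Gels 4 and 5 held NFs mixed in the same way, with tumor cells of line 13-MCB-17 and of line 10-SJK-221, respectively. They gave 2 libraries of each NF subset and 2 of tumor cells. Whether the gels shared the same NF preparation is not stated. Gels 2 and 3 held these tumor lines alone, in the same order, and gave 2 tumor libraries. Each is 1 cell line derived from tumors of WapCre;Cdh1F/F;PtenF/F mice, a model of invasive lobular carcinoma (ILC) in which the Wap promoter drives Cre in mammary epithelium. After culture cells were separated by color, so a CD26+ cell that had kept its red color would be counted as CD26−. Virus exposure and subset cannot be told apart, and neither can the tumor line and the gel among co-cultures.

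CD26+ fibroblasts line the outer, interstitial layers of many organs and are regarded as a reserve from which more specialised fibroblasts arise. Dpp4 encodes a membrane peptidase. Cd34 (a sialomucin), Ly6a (Sca-1), Ly6c1 and Cd55 (decay-accelerating factor, which restrains complement) encode other surface proteins. Pi16 (peptidase inhibitor 16), Sema3c (a semaphorin), Clec3b (tetranectin, which binds plasminogen) and Dpt (dermatopontin, a matrix protein) encode secreted proteins, and Anxa3 encodes an intracellular annexin.

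Libraries held 14142334 to 18408940 counts. Levels are given as CPM (counts scaled to a library total of 1000000), and a library with 0 counts may hold up to 3 counts, which is 0.163 to 0.212 CPM, with counting error alone considered. In bulk libraries fewer expressing cells and less RNA per cell cannot be told apart. Col1a1, a fibroblast collagen, stood at 17368 and 18556 CPM in NFs alone, as against 1.78 and 3.10 CPM in tumor cells without NFs. Epcam had 0 counts in NFs alone but 6.42 to 15.9 CPM in co-cultured NFs, against 335 and 358 CPM in tumor cells of the same gels. The median of 8 epithelial genes, set against the tumor library of the same gel, gave a tumor share of 1.97% (CD26−) and 2.82% (CD26+) in gel 4, and of 2.20% (CD26−) and 5.03% (CD26+) in gel 5. Single genes gave 0.827% to 17.7%. This share was higher in CD26+ than in CD26− NFs in both gels. In NFs alone the summed level of these genes was 0.435 and 0.842 CPM, with 6 and 7 of the 8 at 0 counts. The other way round, NF RNA made up 0.294% and 0.173% of co-cultured tumor libraries by the median of 8 fibroblast genes. Of the other cell types the sort should have removed, 5 endothelial genes summed to 1.37 to 22.9 CPM and 5 immune genes to 2.11 to 14.8 CPM over the NF libraries. Kdr, an endothelial receptor on the first of these lists, was itself higher in CD26+ NFs (log2 fold change 2.11, SE 0.41, adjusted p = 0.0191 over 3 gels) at no more than 8.35 CPM.

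**Figure D1:**
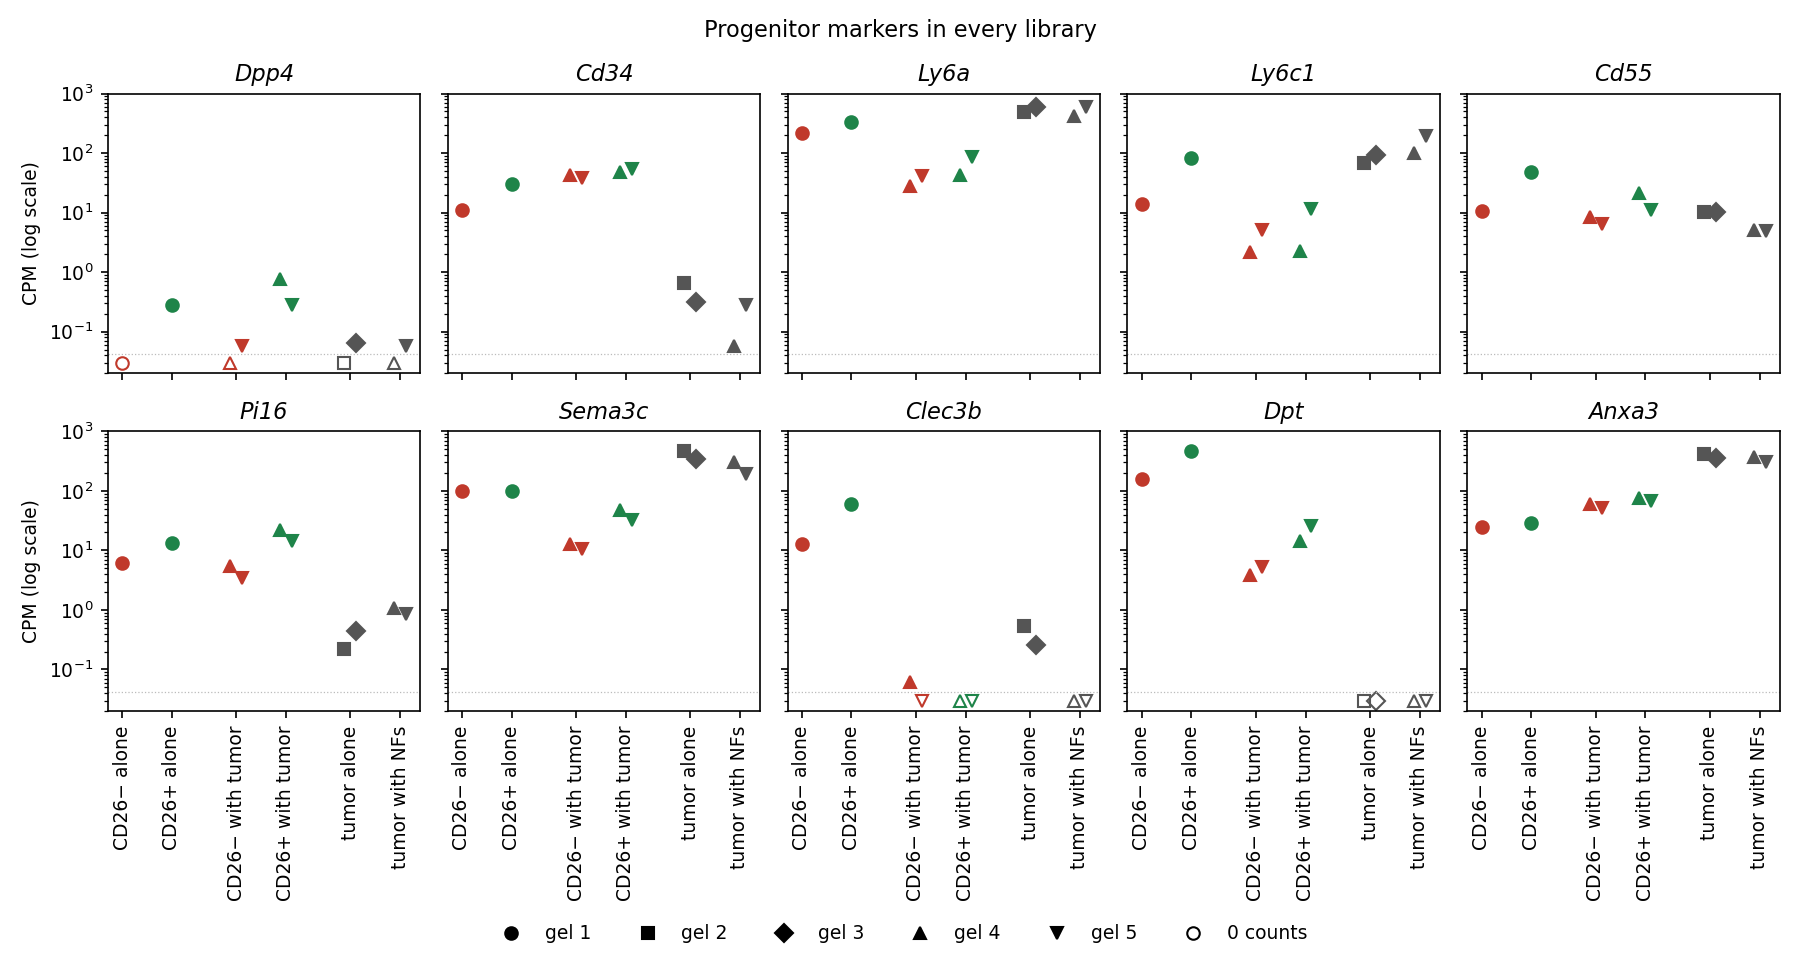
Level of each marker in each of the 10 libraries, in CPM on a log axis, by cell type and culture. Marker shape gives the gel, and open symbols below the dotted line are libraries with 0 counts. Dpt and Clec3b sit far lower in co-cultured NFs than in NFs alone, while Ly6a, Ly6c1, Sema3c and Anxa3 are higher in tumor libraries than in the NFs of the same gels.

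Dpp4 itself, the gene of the sorting marker, was close to the limit of detection. Among CD26+ NFs it had 4 counts in gel 1, 12 in gel 4 and 4 in gel 5 (0.281, 0.771 and 0.283 CPM). CD26− NFs had 0, 0 and 1 counts in the same gels, and tumor libraries 0 or 1. Every CD26+ library thus lay above every CD26− library, on 20 against 1 counts in all. Dpp4 did not pass the filter on low counts for the comparison over 3 gels. In co-culture alone it was tested and did not pass the threshold (log2 fold change 3.69, SE 1.39, adjusted p = 0.151). Among related peptidases, Dpp8 had 100.2 to 121 CPM in NFs and Fap, a fibroblast surface protease, 29.7 to 69.4 CPM, while Dpp6 had 0.727 to 4.04 CPM and Dpp10 0 counts. Of 6 such genes 5 were tested, and 0 of 5 passed the threshold between the subsets, over the 3 gels or in co-culture, by edgeR or DESeq2 (0 at an unadjusted p under 0.05).

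In NFs cultured without tumor cells, the markers leaned to the CD26+ side. In gel 1 all 10 had a higher CPM in CD26+ NFs, and 9 did with TMM-scaled CPM. By CPM 7 were at least 2-fold higher, with Dpp4 set over 0 counts: Dpp4, Cd34, Ly6c1, Cd55, Pi16, Clec3b and Dpt. For Dpp4, at 4 against 0 counts, the counting interval of the ratio began at 0.746, so equal levels were not excluded. Gel 1 has 1 library of each subset, so this comparison carries no test, and its intervals cover counting error only. For comparison, 58.3% of the 15013 genes that passed the filter, a set without Dpp4, were higher in CD26+ NFs of gel 1. At least 2-fold higher were 10.1% of them, and the median gene was higher by 0.11 on the log2 scale.

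Among surface proteins other than Dpp4, Ly6c1 differed most in gel 1, with 14.2 CPM in CD26− and 81.8 CPM in CD26+ NFs, 5.78-fold (95% interval 5.01 to 6.69). Cd55 had 10.8 and 48.9 CPM (4.52-fold, 3.82 to 5.37) and Cd34 10.9 and 29.8 CPM (2.74-fold, 2.29 to 3.28). Ly6a was high in both, at 213 and 332 CPM, and differed 1.56-fold (1.49 to 1.63).

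Among secreted proteins, Clec3b had 13.0 CPM in CD26− and 59.1 CPM in CD26+ NFs (4.53-fold, 3.89 to 5.30), and Dpt 157 and 474 CPM (3.03-fold, 2.89 to 3.17). Pi16 had 6.09 and 13.2 CPM, and its ratio of 2.17 (1.69 to 2.80) became 1.98 with TMM-scaled CPM. Sema3c did not separate the subsets in this gel, at 100.1 and 101 CPM (1.01-fold, 0.941 to 1.09), and Anxa3 hardly so, at 24.5 and 29.1 CPM (1.18-fold, 1.03 to 1.36).

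**Figure D2:**
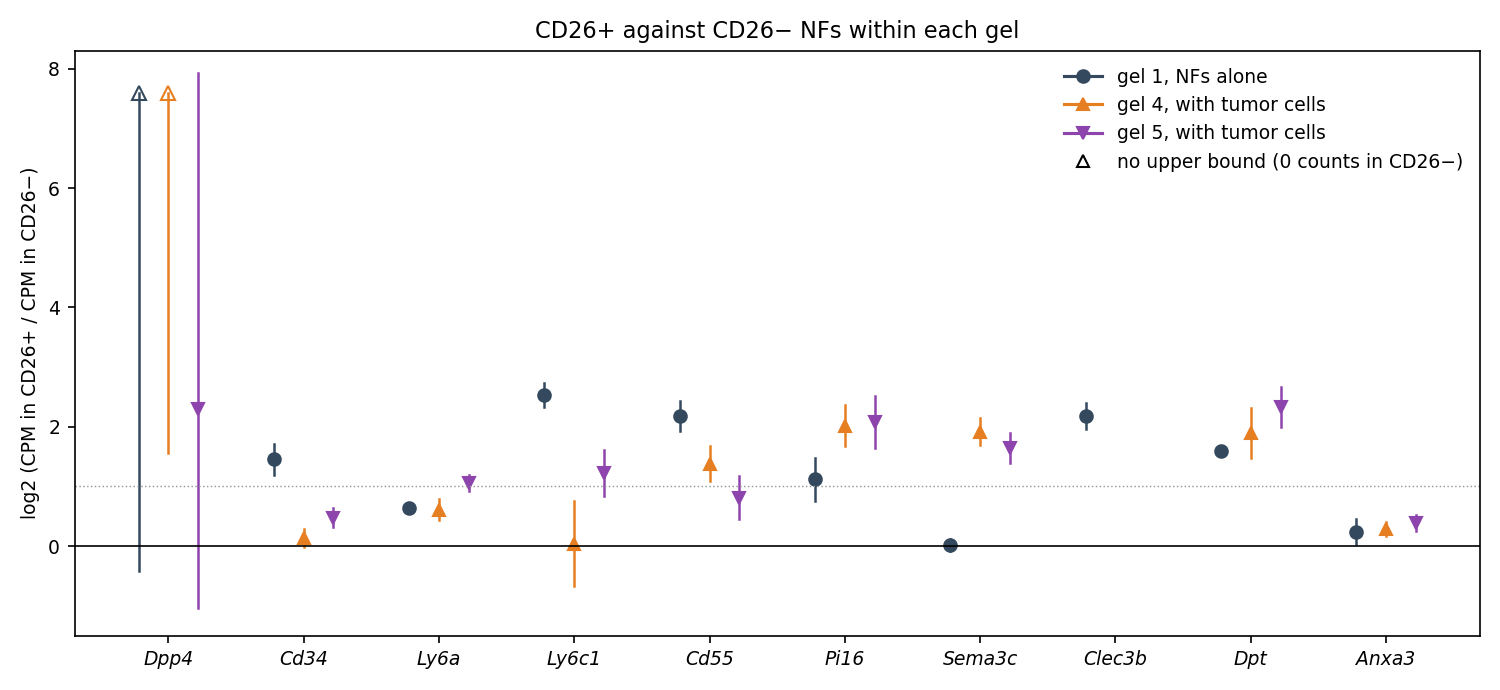
Ratio of CPM in CD26+ to CD26− NFs of the same gel, on the log2 scale, with 95% counting intervals, for NFs alone (gel 1) and NFs with tumor cells (gels 4 and 5). The dotted line marks 2-fold, open triangles mark Dpp4 in gels 1 and 4 with 0 counts in CD26− NFs, and Clec3b in gels 4 and 5 is not drawn since at most 1 count was found. Pi16 and Dpt lie above 2-fold in every gel, and Sema3c does so in gels 4 and 5 only.

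Beside tumor cells, 5 (gel 4) and 6 (gel 5) of the 10 markers were at least 2-fold higher in CD26+ NFs, where 10.6% and 11.0% of the 15013 genes were. These were Dpp4, Pi16, Sema3c and Dpt in both gels, Cd55 in gel 4, and Ly6a and Ly6c1 in gel 5. In gel 5 Dpp4 had 4 against 1 counts (counting interval of the ratio 0.486 to 242), and Ly6a was 1.83-fold higher with TMM-scaled CPM. For Ly6c1 of that gel the estimated tumor share came to 82.7% (CD26+) and 84.2% (CD26−) of its level. By the test over gels 4 and 5, 3 of the 10 markers were higher in CD26+ than in CD26− NFs: Dpt, Pi16 and Sema3c, where 3.48% of all 16231 genes tested were higher. None was lower past the threshold, and 9 of the 10 had a positive log2 fold change, as did 51.2% of all genes. The median marker was higher by 0.87 on the log2 scale, and the median gene by 0.011. All comparisons in co-culture rest on 2 libraries of each subset.

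Dpt had 3.82 and 5.18 CPM in CD26− NFs against 14.1 and 26.0 CPM in CD26+ NFs, for gels 4 and 5 in turn. Levels of the subsets did not overlap, and Dpt had 0 counts in all 4 tumor libraries. Its log2 fold change was 1.97 (SE 0.29, adjusted p = 0.00125).

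Pi16 had 5.45 and 3.40 CPM in CD26− NFs against 22.1 and 14.3 CPM in CD26+ NFs. The ratio was 4.05 in gel 4 and 4.21 in gel 5, and the log2 fold change 1.87 (SE 0.28, adjusted p = 0.00136). Tumor libraries held at most 1.07 CPM of Pi16.

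Sema3c had 12.7 and 10.5 CPM in CD26− NFs against 47.8 and 32.9 CPM in CD26+ NFs, a log2 fold change of 1.62 (SE 0.20, adjusted p = 0.000443). Tumor cells of these gels held 302 and 190 CPM, and the tumor share estimated from epithelial genes came to 47.0% and 39.7% of the Sema3c level in CD26− NFs and 17.8% and 29.1% in CD26+ NFs. With that share taken off the counts of every gene, the log2 fold change was 2.12 (adjusted p = 0.000948).

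Each of these 3 calls was lost when either co-cultured CD26+ library was left out, with adjusted p-values of 0.066 to 0.158, although the log2 fold changes stayed between 1.36 and 2.37. Without 1 of those libraries 0 (gel 4) or 2 (gel 5) genes passed the threshold of edgeR in the whole table, as against 975, with 3284 and 2997 at an unadjusted p under 0.05, and DESeq2 on all libraries gave 797.

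Sequence just before the RefSeq start of these 3 genes is shown because they were the markers that passed the threshold between the subsets in co-culture. Each window holds the 250 bases before the RefSeq start on GRCm38.p6, written 5′ to 3′ on the gene's strand, and capitals mark matches, on either strand, to 5 motifs that were searched. They were the TATA box, written as TATAAA, the AP-1 motif, searched for as TGACTCA, the STAT motif, written as TTCNNNGAA, the interferon response motif, searched for as GAAANNGAA, and the GC box, written as GGGCGG. Of the 10 markers 7 had an entry, and Clec3b, Ly6a and Anxa3 had none.
Pi16, chr17:29318632-29318881, + strand: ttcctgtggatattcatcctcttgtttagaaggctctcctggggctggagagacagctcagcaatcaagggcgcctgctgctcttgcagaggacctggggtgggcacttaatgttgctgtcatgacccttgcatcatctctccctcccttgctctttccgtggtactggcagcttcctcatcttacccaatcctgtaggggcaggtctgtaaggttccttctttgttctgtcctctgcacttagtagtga
Dpt, chr1:164796413-164796662, + strand: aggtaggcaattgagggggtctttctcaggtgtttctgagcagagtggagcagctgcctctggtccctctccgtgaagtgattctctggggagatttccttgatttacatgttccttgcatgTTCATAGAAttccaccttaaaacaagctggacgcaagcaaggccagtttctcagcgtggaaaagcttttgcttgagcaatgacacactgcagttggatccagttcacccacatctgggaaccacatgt
Sema3c, chr5:17574566-17574815, + strand: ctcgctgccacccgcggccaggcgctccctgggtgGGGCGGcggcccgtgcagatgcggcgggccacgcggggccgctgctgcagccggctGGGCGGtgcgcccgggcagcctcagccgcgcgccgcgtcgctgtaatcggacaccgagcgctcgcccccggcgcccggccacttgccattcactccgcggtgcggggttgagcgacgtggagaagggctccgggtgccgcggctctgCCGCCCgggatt
The Pi16 window held none of the 5 motifs. Over 32851 promoter windows of this length the TATA box was found in 12.4%, the AP-1 motif in 4.46% and the interferon response motif in 7.13%. The Dpt window held 1 match to the STAT motif, which begins 128 bases before the start and is found in 7.02% of the windows. The Sema3c window held 3 GC boxes, a motif found in 32.7% of windows. No motif was shared by the 3, and the counts do not show which start was used. For Pi16 and Sema3c the RefSeq start lies downstream of the gene start given by the files, so that their windows fall inside the gene as the files annotate it, and the Dpt window overlaps its first bases.

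The remaining 7 markers did not pass the threshold in co-culture. Cd55 came closest, with 8.36 and 6.33 CPM in CD26− NFs against 21.7 and 11.1 CPM in CD26+ NFs (log2 fold change 0.99, SE 0.28, adjusted p = 0.0512). Ly6a had 28.0 and 41.0 CPM in CD26− NFs against 42.7 and 85.8 CPM in CD26+ NFs (0.72, SE 0.29, adjusted p = 0.178). The estimated tumor share came to 27.2% to 35.4% of the Ly6a level in these 4 libraries. Within a gel Ly6a was 1.52-fold (gel 4) and 2.09-fold (gel 5) higher in CD26+ NFs.

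Both NF subsets of a gel shared a culture, and a model with the gel as a block was therefore also fitted, on the 4 libraries of gels 4 and 5 alone. With it 5 of the 8 markers tested were higher in CD26+ NFs, where 8.71% of all genes were: the former 3 together with Cd55 (adjusted p = 0.000152) and Ly6a (adjusted p = 0.00125). The same 4 libraries without the block gave 977 of 14410 genes in either direction, against 2407 with it, and of the markers Dpt, Pi16 and Sema3c passed.

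For Cd34 and Anxa3 the differences in co-culture were about the size of their errors. Cd34, 2.74-fold higher in CD26+ NFs of gel 1, had 43.0 and 38.2 CPM in CD26− NFs against 47.3 and 53.2 CPM in CD26+ NFs beside tumor cells (log2 fold change 0.14, SE 0.17, adjusted p = 0.719). Anxa3 had 61.2 and 50.9 CPM in CD26− NFs against 74.7 and 66.7 CPM in CD26+ NFs (0.16, SE 0.17, adjusted p = 0.647).

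Ly6c1 fell beside tumor cells to a level close to the estimated tumor share. It had 2.18 and 2.25 CPM in CD26− and CD26+ NFs of gel 4, and 5.01 and 11.7 CPM in those of gel 5. Tumor cells held 101 and 192 CPM, and the estimated tumor share was 82.7% to 127% of the level in these 4 libraries. The subsets did not differ past the threshold (log2 fold change 0.76, SE 0.55, adjusted p = 0.488). Reads of Ly6c1 and its near-identical neighbour Ly6c2 are hard to assign. Ly6c2 was not seen in NFs alone (0 counts), while tumor libraries held 66.9 to 153 CPM.

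Clec3b was left with 1 count in CD26− NFs of gel 4 and 0 counts in the other 3 co-cultured NF libraries, so at this depth no difference between the subsets was detectable there.

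**Figure D3:**
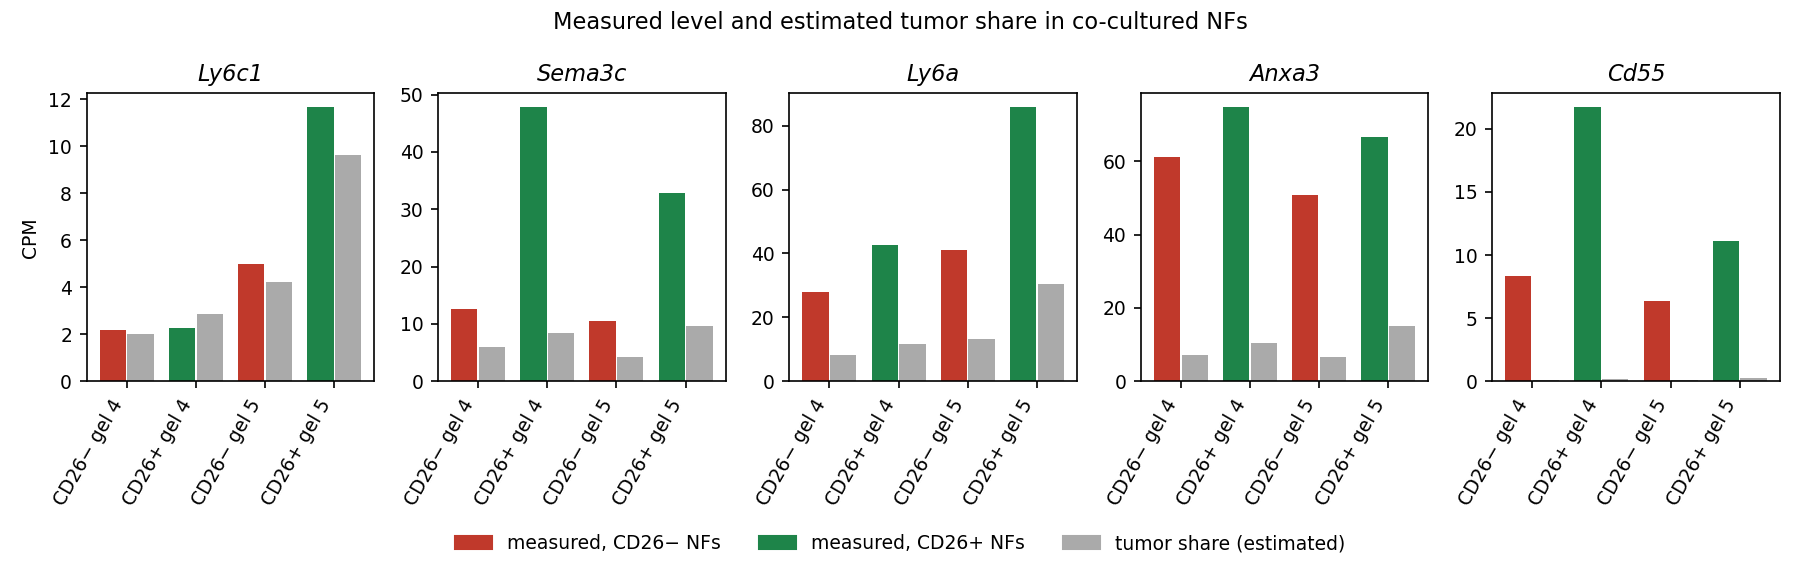
CPM of 5 markers in the 4 co-cultured NF libraries (colored bars) beside the amount expected from the tumor share of the same library (gray bars), on linear axes from 0. For Ly6c1 the gray bars come to 82.7% to 127% of the colored ones, and for Cd55 to at most 2.25%.

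With gels 1, 4 and 5 in 1 model, with culture as a term, 4 of the 9 markers tested were higher in CD26+ NFs, against 3.93% of all 15013 genes. They were Dpt (log2 fold change 1.77, SE 0.24, adjusted p = 0.00548), Pi16 (1.58, SE 0.27, adjusted p = 0.0118), Cd55 (1.36, SE 0.29, adjusted p = 0.0256) and Clec3b. Clec3b had at most 1 count in NFs of gels 4 and 5, so that its call rests on the single library of each subset in gel 1 and is no replicated test, which leaves 3 markers. The other 5 had positive log2 fold changes of 0.15 (Anxa3), 0.50 (Cd34), 0.65 (Ly6a), 1.01 (Sema3c) and 1.43 (Ly6c1), with adjusted p-values of 0.0864 to 0.473. In direction, 9 of the 10 markers had a higher CPM in CD26+ NFs in each of the 3 gels, the exception being Clec3b. Of the 15013 genes, which do not include Dpp4, 36.4% did. A counting interval above 1 in each gel was found for 5 markers and 14.5% of genes. With TMM-scaled CPM 6 markers and 23.2% of genes were higher in every gel, since the ratio was 0.922 for Sema3c in gel 1, and 0.997 for Cd34 and 0.934 for Ly6c1 in gel 4. Only Dpp4, Dpt and Pi16 were at least 2-fold higher in every gel by CPM. For Dpp4 the counting interval of the ratio began at 0.746 in gel 1 and at 0.486 in gel 5, so equal levels were not excluded there. The intervals of Dpt and Pi16 lay above 1 in every gel.

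DESeq2 did not call Clec3b but called Sema3c (1.05, adjusted p = 0.0136), as did leaving out gel 1 (1.63, adjusted p = 0.00101). Without gel 4 Ly6a (adjusted p = 0.0261) and Ly6c1 (adjusted p = 0.0148) gained a call. Leaving out gel 5 left 1 of the 4 calls, that for Dpt, and 17 genes in the whole table where 1130 had passed. Cd55 lost its call without gel 1 (adjusted p = 0.0645) as well as without gel 5 (adjusted p = 0.075), the lowest value over alternatives being 0.000636. With the gel as a block Ly6a was added (adjusted p = 0.0242), where 4.40% of all genes were higher.

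Next, the effect of tumor cells on the markers was examined. Over both subsets, 6 of the 9 markers tested were lower beside tumor cells (22.9% of all genes were) and 2 were higher (25.9% of all genes). As 1 gel only held NFs alone, these comparisons set 2 gels against 1, and a difference of that gel from others cannot be told apart from the effect of tumor cells.

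Clec3b was all but lost. CD26+ NFs had 842 counts in gel 1 and 0 counts in both co-cultures, at least 292-fold lower (against a floor of 3 counts per library). CD26− NFs had 210 counts in gel 1 and 1 count over both co-cultures, a ratio of 442 after scaling by library totals (95% counting interval 78.4 to 17532). Tumor cells alone had 10 and 4 counts, and co-cultured tumor cells 0 counts.

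Dpt fell from 157 CPM to 3.82 and 5.18 CPM in CD26− NFs, and from 474 CPM to 14.1 and 26.0 CPM in CD26+ NFs, 34.8-fold and 23.7-fold by the means. Log2 fold changes were −5.05 (SE 0.32, adjusted p = 8.31e-08) and −4.52 (SE 0.30, adjusted p = 1.54e-07). The difference between these changes was 0.52 (SE 0.44, adjusted p = 0.909), so an unequal fall was not detected.

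Of the surface proteins, Ly6a and Ly6c1 fell in both subsets and Cd55 in CD26+ NFs, while Cd34 rose (given with Anxa3) and Dpp4 did not pass the threshold. Ly6a was lower in both subsets (log2 fold change −2.55, SE 0.33, adjusted p = 6.1e-05 in CD26− NFs, and −2.33, SE 0.33, adjusted p = 0.000127 in CD26+ NFs). Ly6c1 was lower by −1.89 (SE 0.60, adjusted p = 0.0296) and −3.52 (SE 0.56, adjusted p = 0.000295), of levels that lay near the tumor share. The first of these calls was lost with DESeq2 (adjusted p = 0.346), without a filter (adjusted p = 0.0801) and without the CD26− or CD26+ library of gel 4 (adjusted p = 0.152 and 0.0533), and its log2 fold change ran from −4.69 (tumor share taken off) to −1.39 (without the CD26− library of gel 4). Cd55 was lower in CD26+ NFs (−1.54, SE 0.30, adjusted p = 0.00158) and had a log2 fold change of −0.50 in CD26− NFs (SE 0.34, adjusted p = 0.285). The difference between those changes was not past the threshold (adjusted p = 0.618).

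Sema3c fell in both subsets, by amounts that differed in the edgeR fit of the 4 groups. NFs alone had 1 library of each subset, so the spread in that fit came from the co-culture groups. CD26− NFs went from 100.1 CPM to 12.7 and 10.5 CPM (log2 fold change −3.05, SE 0.23, adjusted p = 4e-07). CD26+ NFs went from 101 CPM to 47.8 and 32.9 CPM (−1.29, SE 0.23, adjusted p = 0.000652). The difference between the changes was 1.75 (SE 0.34, adjusted p = 0.0434), and Sema3c was the only marker of the 10 past the threshold in this interaction, where 0.228% of all genes were past it in the same direction. Its call did not survive leaving out any co-cultured NF library (adjusted p = 0.114 to 0.637), dropping the filter (adjusted p = 0.157), a filter of 1 CPM in 2 libraries (adjusted p = 0.074) or taking off the tumor share (2.25, adjusted p = 0.0628). With the gel as a block calls rose over the whole table, to 1.42% of genes in this direction and 1.01% in the other, and the interaction passed for 4 markers: Sema3c (1.74, adjusted p = 4.37e-06), Cd34 (−1.17, adjusted p = 0.0121), Cd55 (−1.09, adjusted p = 0.0474) and Ly6c1 (−1.75, adjusted p = 0.000145).

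Cd34 and Anxa3 rose. Cd34 went from 10.9 CPM to 43.0 and 38.2 CPM in CD26− NFs (log2 fold change 1.97, SE 0.24, adjusted p = 3.07e-05) and from 29.8 to 47.3 and 53.2 CPM in CD26+ NFs (0.80, SE 0.22, adjusted p = 0.0128). The latter call was lost without the CD26+ library of gel 5 (0.63, adjusted p = 0.0569). Tumor libraries held at most 0.652 CPM of Cd34. Anxa3 rose by 1.25 (SE 0.22, adjusted p = 0.000677) and 1.32 (SE 0.22, adjusted p = 0.000456), and the tumor share came to 11.8% to 22.7% of its level in co-cultured NFs. With the share taken off, the log2 fold changes of Anxa3 were 1.10 and 1.11.

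Pi16 alone of the 9 markers did not pass the threshold in either direction between cultures (log2 fold change 0.067, SE 0.29, adjusted p = 0.862). It had log2 fold changes of −0.40 (SE 0.35) in CD26− NFs and 0.50 (SE 0.32) in CD26+ NFs, with adjusted p-values of 0.411 and 0.250. An adjusted p of this size does not show that its level was the same.

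Counted by subset, 5 markers were lower in co-cultured CD26− NFs and 2 were higher, where 14.1% and 16.6% of all genes were. In CD26+ NFs 6 were lower and 2 higher, where 15.2% and 19.0% of all genes were.

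**Figure D4:**
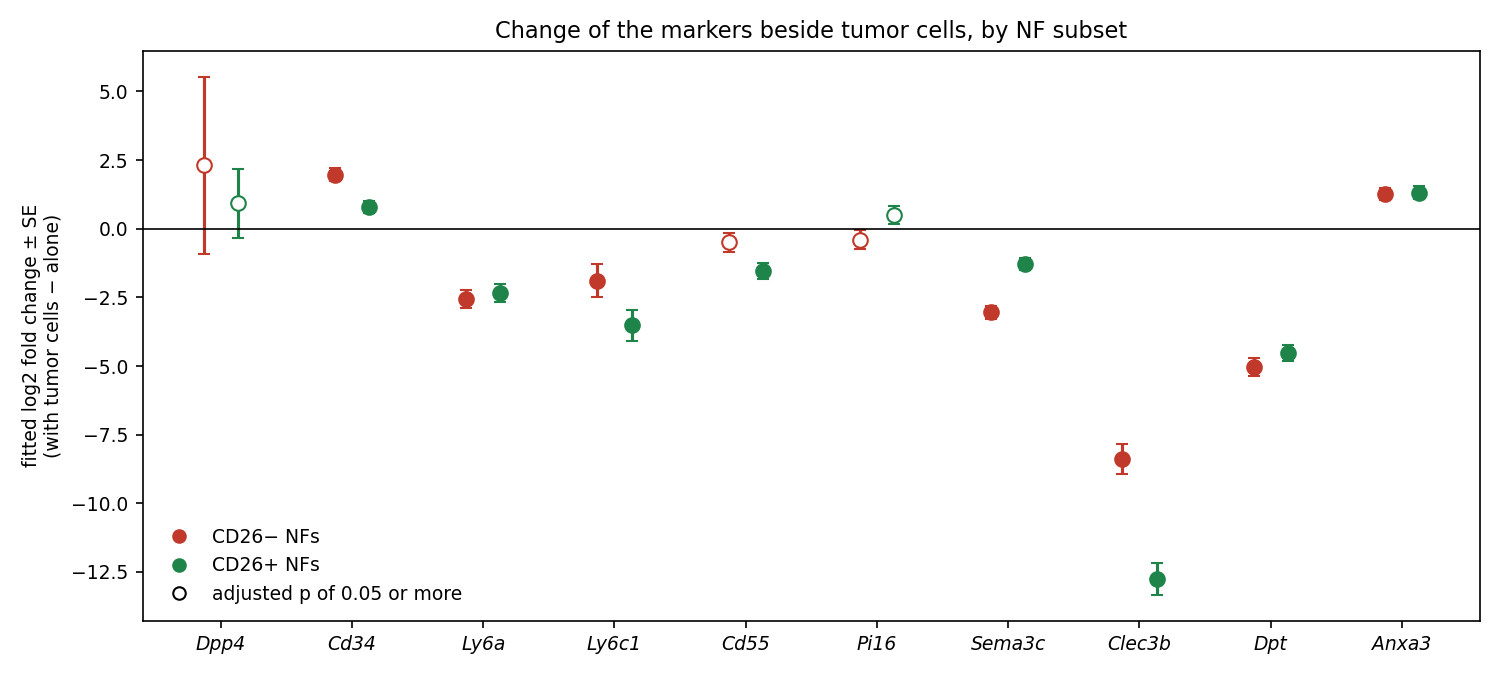
Fitted log2 fold change with its SE for NFs with tumor cells against NFs alone, by subset, with filled points where the adjusted p was under 0.05. Dpt and Ly6a fell in both subsets, Sema3c fell more in CD26− NFs (−3.05 against −1.29), and Cd34 and Anxa3 rose. The fitted values of Clec3b and Dpp4, which have groups at or near 0 counts, depend on the model and carry no size.

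Per kilobase of exon, the order of the markers in CD26+ NFs alone ran from Ly6a and Dpt (both 275 CPM per kb) through Clec3b (59.6), Ly6c1 (48.8), Sema3c (14.2), Cd55 (10.1), Anxa3 (7.98), Cd34 (4.08) and Pi16 (2.07) to Dpp4 (0.0444). These are levels in 1 library, with no spread. In co-cultured CD26+ NFs of gels 4 and 5 Ly6a still led (35.4 and 71.2 CPM per kb), followed by Anxa3 (20.5 and 18.3), Dpt (8.20 and 15.1), Cd34 (6.49 and 7.30), Sema3c (6.69 and 4.61), Cd55 (4.47 and 2.29) and Pi16 (3.47 and 2.24). Cd34 and Sema3c overlapped in level, as did Cd55 and Pi16, and Ly6c1 (1.34 and 6.96) overlapped with several others.

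The markers were not all specific to NFs. Inside gels 4 and 5, Dpt, Cd34, Pi16 and Cd55 were higher in NFs than in tumor cells (31.0% of all genes were), while Ly6a, Ly6c1, Sema3c and Anxa3 were higher in tumor cells (26.5% of all genes). All 8 of the 8 markers tested passed the threshold, with log2 fold changes of NFs against tumor cells from −4.65 for Ly6c1 to 8.19 for Cd34 among the 7 with counts in both. Dpt, with 0 counts in tumor libraries, was at least 21.98-fold higher in each NF library, against a floor of 3 counts per library (mean over tumor libraries). Anxa3 had 300.2 to 414 CPM in tumor libraries and 24.5 to 74.7 CPM in NFs, and Ly6a 412 to 603 CPM against 28.0 to 332 CPM. The call for Cd55 (1.32, SE 0.30, adjusted p = 0.00577) was lost without gel 4 (adjusted p = 0.12, the lowest over alternatives being 0.000146).

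Tumor cells with and without NFs differed in 3 of the 6 markers tested there, in a model with 1 residual degree of freedom and the tumor line as a term. Without that term 0 of the 6 and 0 genes in the whole table passed by edgeR, with 2 of the 6 and 2207 genes at an unadjusted p under 0.05, while DESeq2 with the term called 2 of the 6. Ly6c1 was higher beside NFs (68.4 and 94.2 CPM alone, 101 and 192 CPM in co-culture, log2 fold change 0.77, SE 0.13, adjusted p = 0.00397), as were 10.8% of all genes. Cd55 (−1.04, SE 0.20, adjusted p = 0.00769) and Sema3c (−0.76, SE 0.11, adjusted p = 0.00246) were lower, as were 11.5%. DESeq2 did not make the call for Cd55 (adjusted p = 0.0686, the range over alternatives being 1.53e-05 to 0.149).

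Other genes of the same fibroblast populations were then read. Of 16 further genes of CD26+ or Pi16+ fibroblasts 15 were tested in co-culture, where 1 was higher (3.48% of all genes were) and 1 lower (2.53%) in CD26+ NFs. Their median log2 fold change was −0.26. Over the 3 gels 2 were higher (3.93% of all genes) and 2 lower (3.60%), with a median of −0.18. Whether they differ from the 10 markers was not tested. Ackr3, a scavenging chemokine receptor, was higher in CD26+ NFs in co-culture (32.8 and 37.98 CPM in CD26−, 89.3 and 98.1 CPM in CD26+ NFs, log2 fold change 1.23, SE 0.18, adjusted p = 0.00112) and over the 3 gels (1.09, adjusted p = 0.00548). Procr, the protein C receptor, was higher over the 3 gels (0.55, SE 0.14, adjusted p = 0.0417). Fbn1, the main protein of microfibrils, was lower in CD26+ NFs in co-culture (1624 and 2412 CPM in CD26−, 983 and 1006 CPM in CD26+ NFs, −1.20, SE 0.22, adjusted p = 0.00612) and over the 3 gels (−1.05, adjusted p = 0.0169). Fn1, fibronectin, was lower over the 3 gels (−0.76, SE 0.19, adjusted p = 0.0417). Between cultures 10 of the 15 were higher beside tumor cells (25.9% of all genes were) and 3 lower (22.9% of all genes). Of these 10, Bmp7 was not seen in gel 1 (0 counts), while the tumor libraries of gels 4 and 5 held 149 and 25.5 CPM, and the tumor share came to 29.5% to 71.1% of its level in co-cultured NFs. That share was 4.18% to 10.9% for Creb5 and 4.49% to 8.76% for Ackr3.

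Genes of CD26− or Col15a1+ fibroblasts were not uniformly lower in CD26+ NFs either. Of 12 tested in co-culture, Col15a1 (−1.16, SE 0.26, adjusted p = 0.0179) and Hspg2 (perlecan, −0.70, SE 0.19, adjusted p = 0.0483) were lower (2.53% of all genes were). Sparcl1 (1.37, SE 0.19, adjusted p = 0.00101) and Col18a1 (0.81, SE 0.18, adjusted p = 0.0173) were higher (3.48% of all genes were), with a list median of 0.054. Over the 3 gels Sparcl1 (1.02, adjusted p = 0.0314) and Col18a1 (0.84, adjusted p = 0.00909) were higher (3.93% of all genes were). Col15a1 had a log2 fold change of −0.93 over the 3 gels (adjusted p = 0.0526 by edgeR) and a lower CPM in CD26+ NFs in each gel (692 and 546, 1185 and 619.5, and 1881 and 934 CPM in CD26− and CD26+ NFs of gels 1, 4 and 5). Over the 3 gels DESeq2 called 3 of the 12, and 11.2% of all genes, in either direction. Tumor cells of gels 4 and 5 held 1976 and 2362 CPM of Col18a1.

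**Figure D5:**
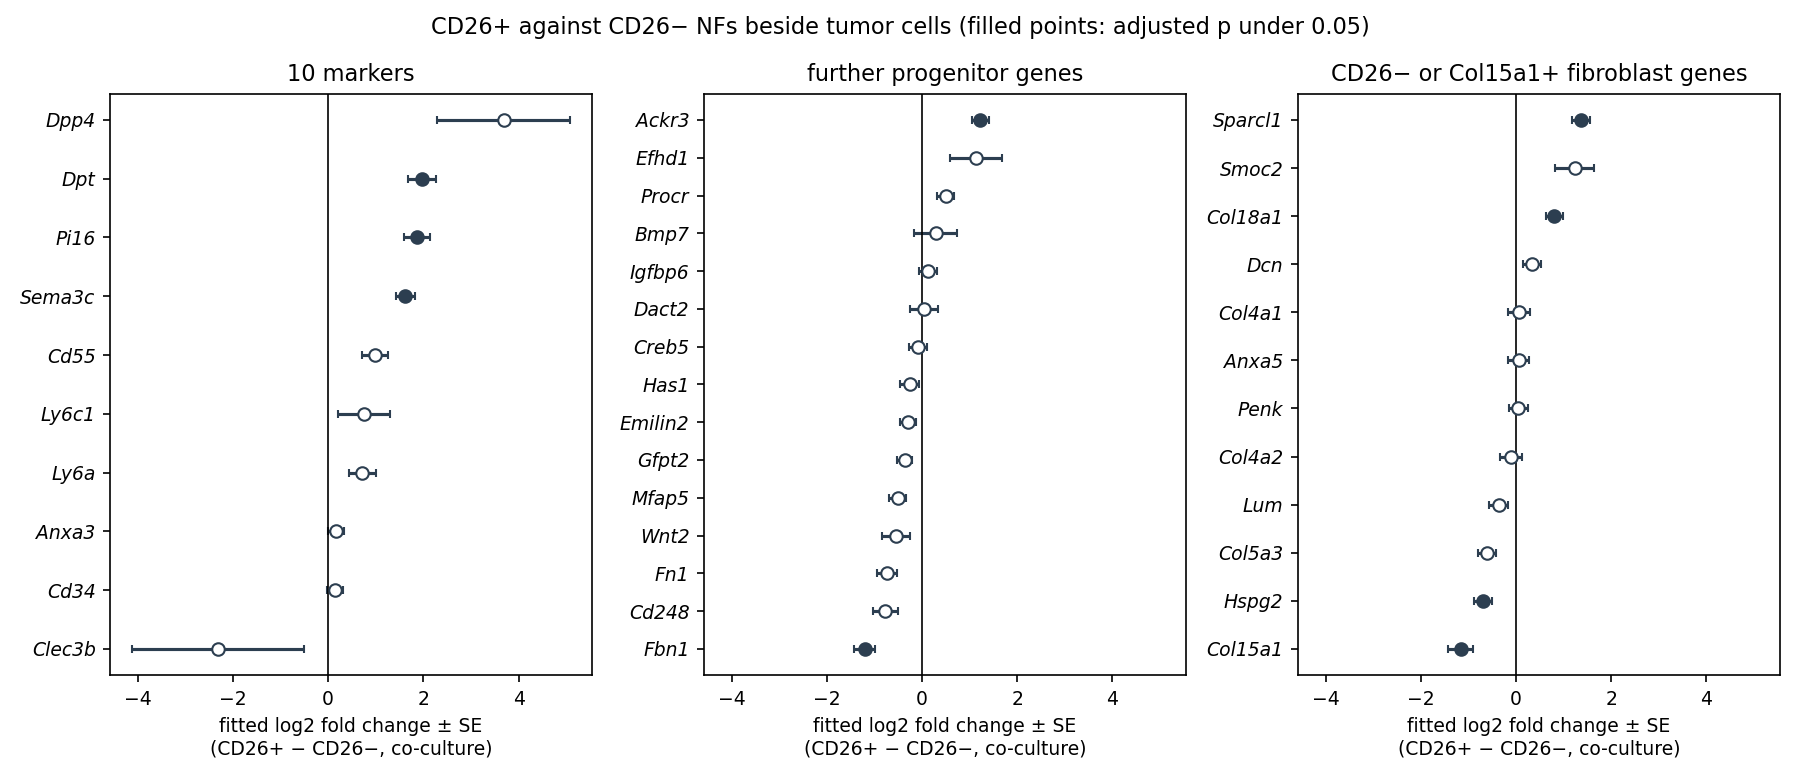
Fitted log2 fold change with its SE for CD26+ against CD26− NFs in co-culture, for the 10 markers, 15 further genes of CD26+ or Pi16+ fibroblasts and 12 genes of CD26− or Col15a1+ fibroblasts. Filled points passed the threshold. In the first panel 3 points are filled, all above 0, while the other panels hold filled points on both sides of 0.

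Partners of the markers were read in the same libraries. Sema3c signals through neuropilins and plexins, and of 7 receptor genes Nrp1 was lower in CD26+ NFs in co-culture (110 and 159 CPM in CD26−, 54.0 and 70.7 CPM in CD26+ NFs, log2 fold change −1.29, SE 0.22, adjusted p = 0.0038) and over the 3 gels (−1.10, adjusted p = 0.0146). Plxnd1 was higher over the 3 gels (0.53, SE 0.12, adjusted p = 0.0327). Between cultures 5 of the 7 receptor genes were lower beside tumor cells (22.9% of all genes were) and Nrp2 was higher (2.06, SE 0.19, adjusted p = 2.23e-05), where tumor cells of gels 4 and 5 held 751 and 783 CPM of Nrp2.

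Among complement regulators, the group to which Cd55 belongs, Clu (clusterin) was higher in CD26+ NFs over the 3 gels (log2 fold change 1.29, SE 0.34, adjusted p = 0.0483) and Serping1 lower (−0.67, SE 0.17, adjusted p = 0.0455). Clu had 2.79 CPM in CD26− and 15.9 CPM in CD26+ NFs of gel 1. Tumor cells of gels 4 and 5 held 1063 and 496 CPM of Clu, and the tumor share, larger in CD26+ NFs, came to 63.2% to 94.6% of its level in co-cultured NFs. Of 8 neighbours in the Ly6 family 4 were tested in co-culture and 0 passed the threshold between the subsets by edgeR or DESeq2 (0 at an unadjusted p under 0.05). Ly6a and Ly6c1 are known to respond to interferon. Of 9 interferon genes 8 were tested in co-culture, and Usp18, Bst2 and Rsad2 were higher in CD26+ NFs (3.48% of all genes were), while DESeq2 called 1 of the 8. The summed level of the 9 was higher in CD26+ than in CD26− NFs in each gel (109 against 66.8 CPM in gel 1, 60.4 against 31.1 CPM in gel 4, and 54.6 against 23.6 CPM in gel 5). In co-cultured CD26+ NFs of gels 4 and 5 Bst2 made up 38.9 and 31.2 CPM of that sum. Rsad2 had 1.22 and 0.354 CPM in the same libraries and 0 counts in co-cultured CD26− NFs. Between cultures 5 of the 7 interferon genes tested were lower beside tumor cells, as were 22.9% of all genes. The part of the interferon genes in the levels of Ly6a and Ly6c1 was not tested.

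The check lists moved with the subsets and with the culture as well. Of 8 general fibroblast genes 4 were lower in CD26+ NFs in co-culture (Col1a1, Col1a2, Col3a1 and Pdgfrb, log2 fold changes of −0.996 to −0.86), and of 4 pericyte genes Mcam (−1.66) and Notch3 (−0.96) were lower, where 2.53% of all genes were. The summed pericyte level was 149 and 195 CPM in CD26+ and 241 and 389 CPM in CD26− NFs beside tumor cells. Between cultures, where 22.9% of all genes were lower and 25.9% higher beside tumor cells, 5 of the 8 fibroblast genes were lower, among them Col3a1 (−1.95) and Col1a2 (−0.99), and Thy1 was higher (1.30). Of the 4 pericyte genes Mcam (4.02) and Notch3 (1.90) were higher, while Rgs5 (−1.05, adjusted p = 0.0625) and Abcc9 (−0.79, adjusted p = 0.169) did not pass over both subsets and were lower in CD26− NFs (−1.64, adjusted p = 0.0173, and −1.44, adjusted p = 0.027). Also higher beside tumor cells were 2 of 3 endothelial genes tested (Pecam1, 3.35, and Cdh5, 3.54) and both immune genes tested (Itgam, 3.97, and Csf1r, 2.12). The summed pericyte level was 60.05 and 84.6 CPM in NFs alone, and Notch3 made up most of it beside tumor cells (125 to 271 CPM). The endothelial sum was 1.37 and 4.91 CPM in NFs alone and 8.00 to 22.9 CPM beside tumor cells, and the immune sum 2.11 and 3.51 CPM against 8.56 to 14.8 CPM. What these shifts contribute to the markers was not tested.

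Genes with the most similar pattern were sought for each marker over the 6 NF libraries, as the smallest root mean square (RMS) difference of centred log2 values. Anxa3 had the smallest RMS differences, to Gtpbp2 and Rnmt (0.063 and 0.067). Cd34 was followed by Gprc5c and Gm49329 (0.15 and 0.18), Pi16 by 1110008P14Rik and Resf1 (0.18 and 0.21), and Cd55 by Spink5 and Rprm (0.20 and 0.20). Sema3c was followed by Cdh3 and Cacna1d (0.22 and 0.24) and Ly6a by Gpc3 and Gas1 (0.22 and 0.24). Clec3b (Capn6 and Reg1, 0.39 and 0.45), Dpt (Cyp7b1 and Kng2, 0.42 and 0.54) and Ly6c1 (Rtl3 and Apol6, 0.49 and 0.55) had larger RMS differences to their neighbours. These differences are not scaled to how much a marker itself varied. The markers' own RMS ran from 0.60 (Anxa3) to 2.37 (Dpt), so the values do not rank closeness across markers. Resf1, for one, stood at 58.2, 48.9 and 44.8 CPM in CD26− NFs, as against 161, 242 and 166 CPM in the CD26+ NFs.

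The genes lie on 6 chromosomes of GRCm38, with coordinates as the files give them. Cd34 (194938819 to 194961279), Cd55 (130439027 to 130462744) and Dpt (164796644 to 164824266) lie on chromosome 1, Sema3c (17574281 to 17730268) and Anxa3 (96793339 to 96845966) on chromosome 5, and Ly6a (74994877 to 74998031) and Ly6c1 (75044018 to 75048830) near each other on chromosome 15. Dpp4 (62330073 to 62412231) is on chromosome 2, Clec3b (123150946 to 123157432) on chromosome 9 and Pi16 (29317680 to 29330593) on chromosome 17. Exons of Dpp4, Cd34, Cd55, Pi16 and Anxa3 overlap another gene over 2.03% to 3.67% of their length, and those of the other 5 do not.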

How the data were processed

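Raw read counts per gene were deposited by the authors as 1 table of 10 libraries, without normalization. Stranded mRNA libraries were sequenced on HiSeq and NovaSeq instruments. The submitters' processing notes name HISAT2 2.2.1 and GRCm38, while how reads were counted (program, strand setting, annotation release) is not given in the sources used here. GENCODE M21 lists 55140 of the 55486 gene IDs, 54783 at the same coordinates. The table's only line with no gene ID had 0 counts and was dropped.

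The quasi-likelihood test of edgeR 4.0.16 (R 4.3.3) was applied to the counts of all genes (TMM scaling, filterByExpr), with Benjamini-Hochberg adjustment over all genes tested and a threshold of 0.05. All SEs are of the log2 fold change. The subsets were compared over gels 1, 4 and 5 with culture as a term. Comparisons in co-culture, by subset and their interaction used 4 groups of the same 6 NF libraries. NFs were compared with tumor cells in gels 4 and 5, and tumor libraries with line as a term. Nothing says that gels came from separate mice, so p-values measure the spread between these libraries. The gel number pairs NF libraries, because both subsets shared the gel (correlation of the gel 4 minus gel 5 differences across 15013 genes 0.155). A paired fit was an alternative, as were RLE scaling, other filters, DESeq2 1.42.0 and leaving out libraries. Taking off the tumor share was added after seeing the data. Ratios within a gel have exact conditional 95% intervals, which, like the floor of 3 counts, reflect counting error only (several reads may stem from 1 molecule). The fits were tested on simulated data.

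The markers and gene lists were chosen with earlier results of these data known. All 10 markers were named, along with listed genes past the threshold between the subsets, Col1a1, Epcam and the 2 genes most like each marker tested (log2 of TMM-scaled CPM with a pseudocount of 1). One listed gene is not reported here. Other genes named are examples chosen after their values were seen. Promoter windows are from RefSeq.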

Additional observations from a re-analysis of the deposited data

Results flagged for a closer look

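Sema3c was picked out because its change beside tumor cells differed between the subsets: the interaction was 1.75 on the log2 scale (SE 0.34, adjusted p = 0.0434 by edgeR), with the smaller fall in CD26+ NFs. In gels 1, 4 and 5, in this order, CD26− NFs held 100.1, 12.7 and 10.5 CPM, as against 101, 47.8 and 32.9 CPM for CD26+ NFs. Both co-cultured CD26+ libraries lay above both co-cultured CD26− libraries, and the adjusted p was 0.0628 with the tumor share taken off.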

How the results depend on the processing

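Of 592 values of single markers under alternatives, 545 kept their direction and their side of the threshold, 28 lost and 11 gained a call, and 8 changed sign. Leaving out 1 gel gave 1 to 6 markers between the subsets over the gels, and leaving out 1 library gave 0 to 3 in co-culture, where the lowest count came without either CD26+ library. In the interaction, where 1 marker had passed, leaving out any library gave 0, with 3 or 4 markers at an unadjusted p under 0.05. No filter, a filter of 1 CPM in 2 libraries and the tumor share taken off also gave 0 by edgeR (2 or 3 at an unadjusted p under 0.05), while DESeq2 gave 1. With the replicate block, counts were 5 over the gels, 5 in co-culture and 4 in the interaction, and it changed no other call. Among tumor libraries, dropping the line term gave 0 of 6 (2 at an unadjusted p under 0.05, and 2 by DESeq2 with the line term). The cause was not tested. TMM-scaled CPM gave 6 markers at least 2-fold higher in gel 1 where CPM gave 7. Signs changed only when a library or gel was left out, and only for values not past the threshold: Ly6c1 in co-culture (log2 fold changes of −0.91 to 1.54), Pi16 between cultures (−0.24 to 0.33), and, in the interaction, Dpp4 (−2.23 to 0.93), Ly6a (−0.44 to 0.64), Dpt (−0.052 to 0.90) and Anxa3 (−0.024 to 0.16). Leaving out a tumor library could not be fitted, since no residual degrees of freedom remained. Over all genes, counts moved from 1130 to 17 without gel 5 over the gels, from 975 to 603 without the filter and to 0 to 451 without 1 library in co-culture, from 61 to 18 to 97 in the interaction (395 with the replicate block, 0 to 30 without 1 library), from 4997 to 2947 in CD26− NFs and from 5556 to 3200 in CD26+ NFs without their gel 4 library, from 8687 to 4550 and 5212 between NFs and tumor cells without gels 4 and 5, and from 2942 to 1574 (DESeq2) and 0 (no line term) in tumor cells. Depth limits Dpp4 and, in co-culture, Clec3b.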
